A study of Mus musculus with 18 samples.

Results

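Resting Med1 mutant and wild-type (WT) mouse B cells were compared in what their heavy-chain intronic enhancer touches, within the immunoglobulin heavy chain (Igh) locus, along the rest of chromosome 12 and on other chromosomes. The comparison used 6 of the 18 libraries of the series, chosen by their genotype and day labels: 3 Med1 mutant resting libraries and 3 WT resting libraries. The cells were CD43-negative B cells of the spleen, taken at day 0 without activation and fixed in 2% formaldehyde. Contacts were measured by 4C-seq, in which DNA is crosslinked, cut with DpnII and ligated, so that fragments that lay near the bait become joined to it; after a second cut with Csp6I and a second ligation, an inverse PCR from the bait amplifies its partners. The 6 libraries of cells cultured for 2 days with LPS and IL4 (3 Med1 mutant, 3 WT, one of the WT with a growth protocol that names anti-CD40) shared the estimate of the spread and served as a second pair of groups. The 6 libraries of cells cultured with LPS alone were not analysed here.

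The mutant allele, any Cre driver, and the age, sex and number of the mice are not given in the sources used here. Nothing in the labels says that the replicates came from separate mice, so the p-values measure the spread between libraries, which may be technical. The titles of the WT libraries read WTKO while their genotype label reads WT, and the label was followed. 4C-seq reads DNA contacts and no RNA, so neither the loss of Med1 nor the markers of the B cell could be checked. In a bulk library, a weaker contact in every cell and a contact lost from a part of the cells cannot be told apart.

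Med1 is a subunit of Mediator, the complex that carries signals from enhancer-bound factors to RNA polymerase II. The bait enhancer, Eμ, lies between the joining segments and Ighm. On one side of it stand the constant genes, in the order Ighm, Ighd, Ighg3, Ighg1, Ighg2b, Ighg2c, Ighe and Igha, followed by the 3' regulatory region (3'RR), a cluster of enhancers, and by CTCF sites that mark the end of the locus. On the other side stand the J, D and VH segments, of which V(D)J recombination joins one of each and deletes the DNA between them. A resting mature B cell expresses Ighm and Ighd, and class switching later replaces them with a downstream constant gene.

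The bait fragment end was chr12:113426025-113426048 (mm10), and it held the most reads of chromosome 12 in each library. The inverse PCR used the following primers, printed 5' to 3' from the study's design text because they define what every read was ligated to.
Primer a: tctgtcctaaaggctctgaga
Primer b: gaacacagaagtatgtgtatgga

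Each value in the files is the number of reads at an interval of 24 bp that adjoins a DpnII site. To show what a measured contact is, 3 ends in the promoters of genes beyond the 3' end of Igh are printed with the adjoining DpnII site in capitals, on the + strand of GRCm38.p6 (RefSeq, the same coordinates as mm10). They were chosen as promoter ends read in all 6 resting libraries.
Crip1 promoter end, chr12:113151942-113151965: GATCagcgttcccaggggtccaagtccc
Btbd6 promoter end, chr12:112976271-112976294: GATCaagccttgcgttagagactcattt
Nudt14 promoter end, chr12:112942339-112942362: GATCaccggggtaggtcagctgagcggg
Of the 943 resting ends that lay whole inside a RefSeq promoter sequence, 471 had the site directly before the interval and 472 directly after it. The Crip1 end held 392, 109 and 332 reads in the mutant libraries, against 536, 747 and 525 in the WT libraries. As a share of the chromosome 12 reads that is 0.0386, 0.00897 and 0.0295% in the mutant, against 0.0213, 0.0439 and 0.0331% in WT. The groups overlap, and a single end varied by several fold between libraries of one genotype, so contacts were summed over elements, bands and bins.

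The mutant libraries held 2470497, 2959617 and 2599508 reads, against 6026550, 4127705 and 3738095 in WT, so each mutant library was shallower than each WT library. Of 19 whole-library measures, 5 did not overlap between the genotypes, and those were read totals and numbers of covered ends (exact permutation p = 0.1 each, the smallest that 3 against 3 libraries allow). The share of reads on chromosome 12 (47.5 to 49.4% in the mutant, 47.6 to 48.3% in WT) overlapped, as did the share of that chromosome's reads over 10 Mb from the bait (17.7 ± 1.87% in the mutant, 15.9 ± 1.74% in WT, SD, n = 3 each; exact permutation p = 0.5). Drawn down to equal depth, covered chromosome 12 ends numbered 7069 to 7997 in the mutant and 7304 to 8468 in WT (two-sided exact permutation p = 0.7). The libraries also separated in a way the labels do not give. Mutant replicates 2 and 3 and WT replicate 3 share 92 ends, 88 of them within 500 kb of the bait, that had 50 or more reads in 5 or 6 of their 6 libraries over both days and under 50 in every library of the remaining replicates. The reverse held at 5 ends. This division was taken as known, and no other division of the replicates was tried. The 92 ends were chosen by that difference, so the direction of their shares follows from the choice. Where these ends lie within 500 kb of the bait and over 5 kb from it, they took 0.00984, 4.98 and 4.20% of the chromosome 12 reads in mutant replicates 1 to 3, against 0.0103, 0.00782 and 4.14% in WT replicates 1 to 3. Changes are therefore also given within each set, where the set that lacks these reads has mutant replicate 1 against WT replicates 1 and 2, and the set that has them has mutant replicates 2 and 3 against WT replicate 3; these have no test.

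A share below is a percentage of the chromosome 12 reads over 5 kb from the bait, and a log2 change is the edgeR quasi-likelihood estimate, mutant over WT, ± its standard error, with p adjusted by Benjamini-Hochberg over the table named. Because all shares of a library add up to a whole, a gain in one place is a loss in others. A constant gene element is the gene with up to 10 kb upstream, cut at the next gene or the bait. In resting mutant cells the contact share of Ighe was higher and that of the distal VH segments lower than in WT cells. These were the 2 of 23 Igh elements with an adjusted p under 0.05 (8.70% of the elements), and 4 had an unadjusted p under 0.05. The groups did not overlap at 5 of the 23 elements (21.7%): Ighe and the J/D region were higher in the mutant, and Ighg3, Ighd and distal VH were lower. The other 18 elements overlapped. Where covered ends are counted in place of reads below, the log2 change is taken over all covered chromosome 12 ends. Those numbered 7615 on average in the mutant and 8402 in WT, and they move with depth. Such a change therefore cannot decide whether the reads changed.

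**Figure D1:**
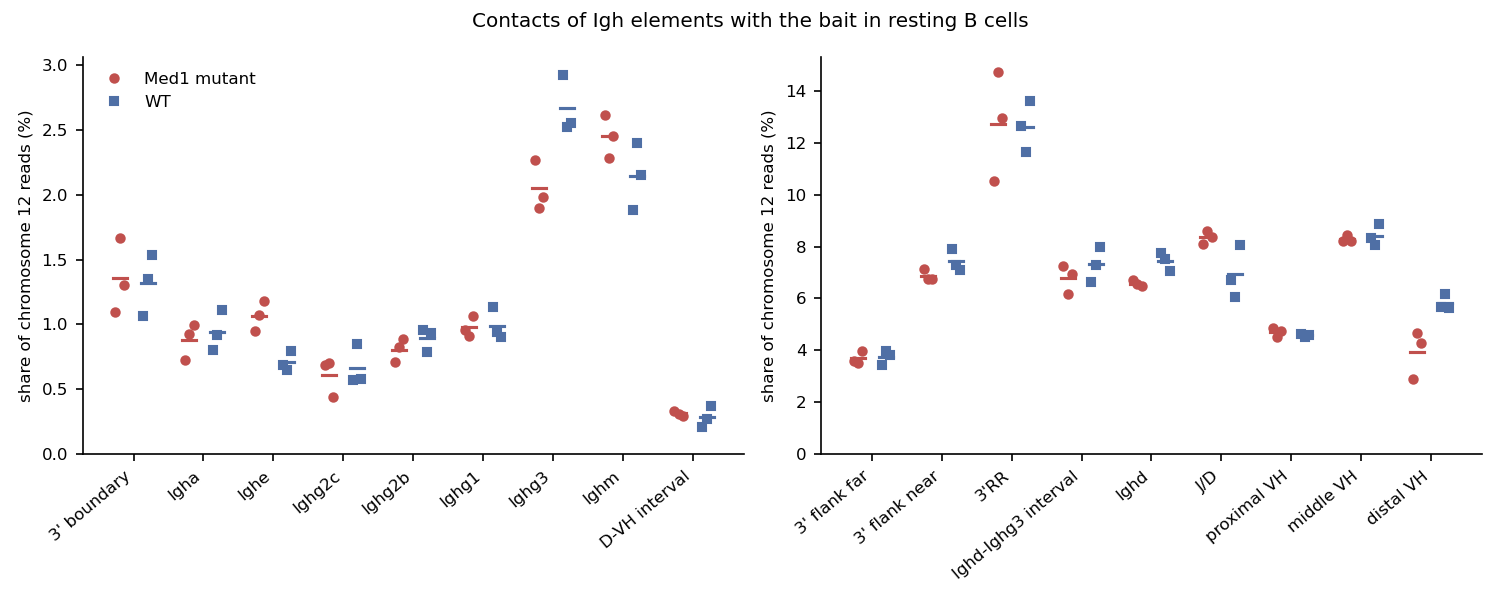
Share of chromosome 12 reads (%) in 18 of the Igh elements, with the 3'RR as a whole; circles are the 3 Med1 mutant libraries, squares the 3 WT libraries and lines the group means, on 2 scales. The Ighe points of the mutant lie at 0.948 to 1.18%, above the WT points at 0.645 to 0.792%, and the distal VH points of the mutant at 2.88 to 4.68%, below the WT points at 5.63 to 6.16%.

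Among the constant genes next to the bait, Ighm, which encodes the μ chain of the first antibody class, took 2.62, 2.28 and 2.46% in the mutant libraries, against 1.88, 2.40 and 2.16% in WT. It rested on 9 ends outside the left-out 5 kb, and the groups overlapped (log2 0.19 ± 0.12, adjusted p = 0.462). Ighd, which encodes the δ chain that resting B cells make beside μ, took 6.70, 6.54 and 6.48% in the mutant, against 7.76, 7.51 and 7.04% in WT. All 3 mutant libraries lay below all 3 WT libraries, yet the log2 change of -0.18 ± 0.08 did not pass (adjusted p = 0.217). Within the set without the extra reads its log2 difference was -0.19 and within the other -0.11, and it was 0.18 with every covered end given equal weight. Of the 33 Ighd ends read in 4 or more libraries, 5 had a higher mean share in the mutant.

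Ighg3, the first constant gene downstream of Ighd and a target of switching under LPS, took 2.27, 1.90 and 1.98% in the mutant, against 2.93, 2.52 and 2.55% in WT. The groups did not overlap, and the log2 change of -0.38 ± 0.12 missed the threshold in the 23-element table (adjusted p = 0.0553). It passed in 3 of 18 alternatives, with an adjusted p of 0.0419 without the ends that separate the sets. A single end, chr12:113366580-113366603, chosen after its values were seen, held 0.209, 0.156 and 0.188% in the mutant, against 0.437, 0.436 and 0.394% in WT. Its difference of means, -0.238 percentage points, stood beside a sum of -0.615 over all 61 Ighg3 ends. Counting covered ends in place of reads, the Ighg3 log2 change was 0.05 (adjusted p = 0.922). Of its ends, 82.5% were covered on average in the mutant and 88.0% in WT.

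Further downstream, Ighg1, which IL4 makes a switching target, took 0.956, 0.910 and 1.07% in the mutant, against 1.13, 0.937 and 0.902% in WT (log2 -0.02 ± 0.11, adjusted p = 0.920). Ighg2b (log2 -0.15, adjusted p = 0.630), Ighg2c (-0.13, adjusted p = 0.872) and Igha (-0.10, adjusted p = 0.879) also overlapped. The element of Ighe, the constant gene of IgE, took 0.948, 1.07 and 1.18% in the mutant, against 0.689, 0.645 and 0.792% in WT. The log2 change was 0.59 ± 0.12 (adjusted p = 0.00584), and the within-set differences were 0.51 in both sets. The groups stood apart although Ighe was one of the less contacted elements in both genotypes.

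The Ighe gain was spread unevenly over its 69 read ends, of which 41 had a higher mean share in the mutant. The end with the largest difference, chr12:113281712-113281735, lies upstream of the gene. It took 0.173, 0.0720 and 0.176% in the mutant, against 0.0560, 0.0247 and 0.0290% in WT. That is a difference of 0.104 percentage points out of 0.359 for the whole element. The next largest differences, 0.0627 at chr12:113281679-113281702 and 0.0498 at chr12:113283166-113283189, were also gains upstream of the gene, and at both the groups overlapped. The number of ends covered did not move with the reads: 72.9% of the Ighe ends were covered on average in the mutant and 73.9% in WT. Counting covered ends in place of reads, the Ighe log2 change was 0.12 and not called (adjusted p = 0.922). The call held in the fit without each of the 6 resting libraries (adjusted p between 0.00278 and 0.0395), and was lost with the replicate number as a block (log2 0.59, adjusted p = 0.0612).

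In the enhancers and boundary at the 3' end, the 3'RR took 10.5, 14.7 and 13.0% in the mutant, against 12.6, 11.6 and 13.6% in WT. These values overlap (log2 0.01 ± 0.13, adjusted p = 0.925), and the 5 pieces of 7 kb of the 3'RR had log2 changes from -0.18 to 0.21, none called. In the boundary region of 20 kb beyond it the log2 change was 0.04 ± 0.15 (adjusted p = 0.920). The 3' flank had -0.11 up to 500 kb from the bait and -0.02 from there to 1 Mb. The lowest 3'RR share of the mutant was that of replicate 1, in the set that lacks the extra reads, of which 16 ends lie in the 3'RR.

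On the other side of the bait, the J/D region took 8.11, 8.59 and 8.38% in the mutant, against 6.73, 6.07 and 8.05% in WT. Every mutant library lay above every WT library, by a small margin over WT replicate 3, and the log2 change of 0.27 ± 0.13 did not pass (adjusted p = 0.261). The within-set differences were 0.34 without and 0.08 with the extra reads, of which 16 ends lie here. Adam6b, a gene of the ADAM family of metalloproteases that lies among the D segments, took 2.40, 2.44 and 3.04% with 10 kb on either side in the mutant, against 2.09, 1.74 and 2.97% in WT (log2 0.21, adjusted p = 0.845 over gene loci). For Adam6a, past the last D segment, the log2 change was 0.24 ± 0.38 (adjusted p = 0.963). The proximal VH segments, up to 500 kb from the bait, took 4.87, 4.51 and 4.72% in the mutant, against 4.63, 4.50 and 4.59% in WT. The middle VH segments, from 500 kb to 1.5 Mb, took 8.22, 8.46 and 8.23% in the mutant, against 8.35, 8.07 and 8.87% in WT. Both overlapped and differed little in mean (log2 0.04 and -0.02).

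The distal VH segments, from 1.5 Mb to the last VH gene at 2.6 Mb, took 2.88, 4.68 and 4.26% in the mutant, against 5.68, 6.16 and 5.63% in WT. All mutant libraries lay below all WT libraries, and mutant replicate 1 lay lowest. The log2 change was -0.56 ± 0.16 (adjusted p = 0.0463). It was -1.04 within the set without the extra reads, which holds mutant replicate 1, and -0.33 within the other. The direction held in all 18 alternatives, from -0.71 to -0.36, but the call was lost in 11 of them. Without mutant replicate 1 the log2 change was -0.38 (adjusted p = 0.0688). It was also lost without mutant replicate 3 (0.0669) or WT replicate 1 (0.0870), 2 (0.0790) or 3 (0.0547), with the 6 resting libraries alone (0.133), and with the replicate number as a block (log2 -0.59, adjusted p = 0.157).

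**Figure D2:**
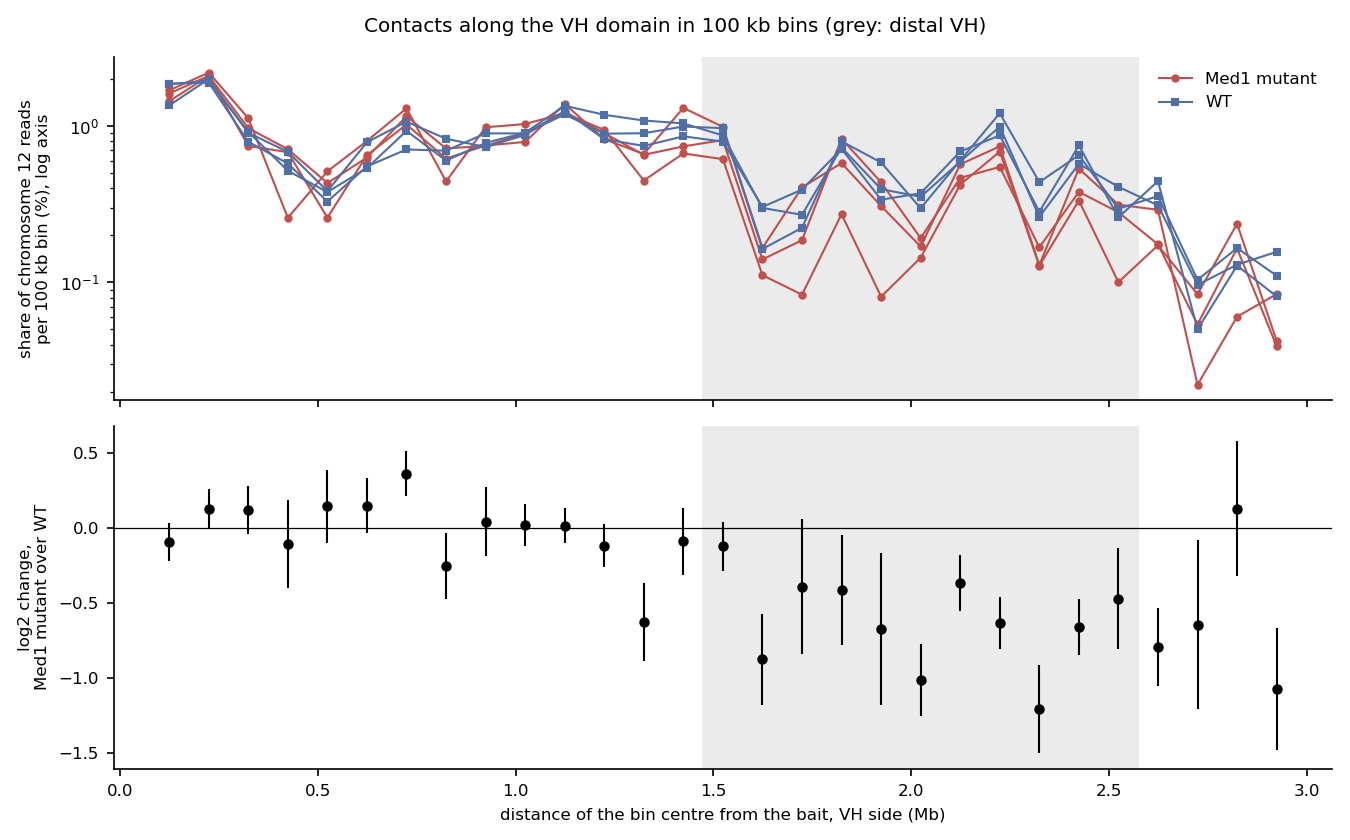
Top, share of chromosome 12 reads (%, log axis) per 100 kb bin against the distance of the bin centre from the bait (Mb) for the 3 Med1 mutant and 3 WT libraries; bottom, log2 change, Med1 mutant over WT, with standard error. In the grey distal VH region all 11 bins have a log2 change below 0, with a median of -0.64.

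The lower share ran through the distal VH region and not at a single site. All 11 bins of 100 kb whose centre lies there had a negative estimate, with a median log2 change of -0.64, whereas the median over all 1124 bins tested on chromosome 12 was 0.19. In 5 of the 11 bins the mutant libraries lay below all WT libraries, and in none above; over the chromosome 3.65% of bins lay below. The same number had a lower share at an unadjusted p under 0.05, against 3.29% over the chromosome. Most bins of the chromosome are far less read, so these chromosome-wide values are not a like comparison. The 557 bins over 50 Mb away had a median of 62 WT reads, against 13697 in the 16 bins from 1 to 2.6 Mb on the VH side. Of the 10 middle VH bins, 1 lay below WT without overlap. None of the 1124 bins had an adjusted p under 0.05 with edgeR (0.0%). Before adjustment 112 did (9.96%), and 54 bins were called by DESeq2. Without mutant replicate 1, 9 of the 11 estimates were negative and their median was -0.28, beside a median of -0.01 over all bins. The median over all bins was -0.14 with TMM scaling and 0.02 with DESeq2, and the 11 distal bins stayed negative under both (medians -0.98 and -0.79).

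The bin at 115400001 to 115500000 took 0.144, 0.170 and 0.192% in the mutant, against 0.371, 0.298 and 0.352% in WT (unadjusted p = 8.1e-04, adjusted p = 0.228). The bin at 115700001 to 115800000 took 0.128, 0.129 and 0.167% in the mutant, against 0.282, 0.437 and 0.262% in WT (unadjusted p = 0.00104, adjusted p = 0.228). In both bins, which were chosen by their p, the 3 mutant libraries lay close together and below the WT libraries. In the middle VH region 4 of 10 bins had a negative estimate (median 0.02). In the 14 bins up to 4 Mb from the bait beyond the last VH gene 7 had one (median -0.06). Of those 14, 2 were lower and 1 higher in the mutant at an unadjusted edgeR p under 0.05. The first, at 116000001 to 116100000, was lower without overlap (log2 -0.80, unadjusted p = 0.0080, adjusted p = 0.410). The lower share therefore did not end sharply at the last VH gene. Counted by ends, 322 distal VH ends were read in 4 or more libraries, of which 103 had a higher mean share in the mutant, 38 lay without overlap below WT and 8 above. Over all 3402 such ends of chromosome 12, 6.11% lay below and 3.70% above, and among the 562 of the middle VH region 36 lay below and 20 above. Of all distal VH ends read at rest, 33.0% were covered on average in a mutant library and 46.9% in a WT library, a share that moves with depth. Counting covered ends in place of reads, the distal VH log2 change was -0.36 (adjusted p = 0.652).

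Read by gene, each end was given to the nearest of 183 annotated VH genes, 120 functional segments and 63 pseudogenes. In the distal region 60 of 63 genes had a negative estimate (median log2 -0.58), in the middle region 46 of 86 (-0.08) and in the proximal region 15 of 34 (0.08). Over all 183 genes the median was -0.26. Without overlap below WT lay 10 of the 63 distal genes, and 15 of all 183 (8.20%). None of the 183 passed with edgeR (0.0%). Before adjustment 14 lay under 0.05 (7.65%), and 5 genes were called by DESeq2. With TMM scaling 53 and with DESeq2 52 of the 63 distal estimates were negative. Both scalings raise the median over the VH genes, from -0.26 to -0.06 and -0.04.

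The 5 VH genes with the smallest unadjusted p, none called, were not all distal. Ighv5-12-4, a proximal gene, took 0.0101, 0.0198 and 0.0178% in the mutant, against 0.0586, 0.163 and 0.0587% in WT (adjusted p = 0.231). Ighv11-2, in the middle region, was higher in the mutant at 0.221, 0.130 and 0.170%, against 0.0700, 0.0646 and 0.0358% in WT (adjusted p = 0.231). Ighv14-4, also middle, took 0.360, 0.508 and 0.451% in the mutant, against 0.339, 0.265 and 0.258% in WT. In these genes, chosen by their p, the groups stood apart in opposite directions within 1 Mb of the bait. Of the distal pair, Ighv1-69 took 0.0902, 0.0641 and 0.0806% in the mutant, against 0.153, 0.398 and 0.130% in WT, and Ighv8-15 rested on 1 end with reads in WT replicate 1 alone.

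VH genes were also summed by family, a grouping by sequence likeness. Ighv1, the largest family (J558), spans 926 to 2584 kb from the bait, and 72 of its 92 genes had a negative estimate. Its summed share was 5.48, 7.41 and 6.52% in the mutant, against 7.35, 8.66 and 8.81% in WT, with mutant replicate 2 just above WT replicate 1. Ighv8, interspersed with it, had 1.05, 1.37 and 1.36% in the mutant, against 1.85, 1.46 and 1.61% in WT, with no overlap and 13 of 16 genes lower. Ighv10, in the middle region, had 0.396, 0.401 and 0.458% in the mutant, against 0.596, 0.533 and 0.479% in WT, again with no overlap.

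Ighv2 and Ighv5, the families that begin nearest the bait, had log2 ratios of mean shares of 0.06 and -0.02 and overlapped. Ighv9 and Ighv14, in the middle region, were higher without overlap: Ighv9 took 0.644, 0.366 and 0.386% in the mutant, against 0.267, 0.239 and 0.248% in WT, with none of its 4 genes below 0. Ighv14 took 0.669, 0.776 and 0.682% in the mutant, against 0.585, 0.434 and 0.504% in WT. Family totals are sums over linked genes and were not tested.

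**Figure D3:**
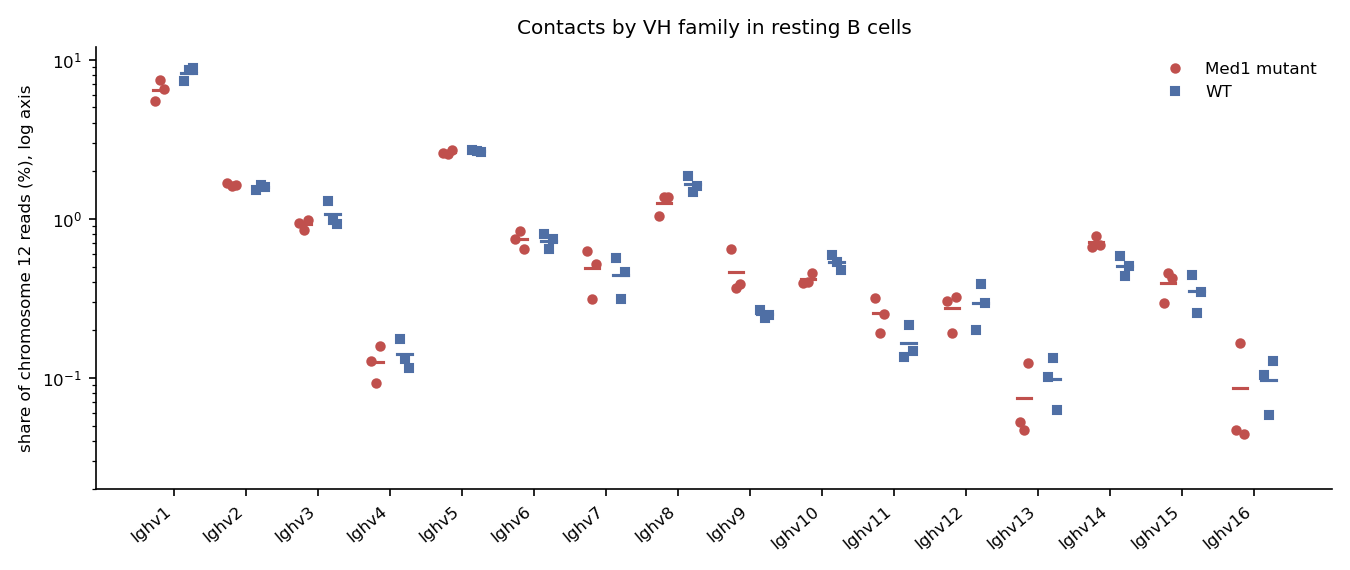
Summed share of chromosome 12 reads (%, log axis) for the 16 VH families; circles are the 3 Med1 mutant libraries, squares the 3 WT libraries and lines the group means. Ighv8 and Ighv10 lie lower and Ighv9 and Ighv14 higher in the mutant without overlap, and the other 12 families overlap.

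Over the whole of chromosome 12, 1 of 21 bands of distance from the bait passed (4.76%), with 6 of 21 not overlapping (28.6%). It was the band from 2 to 5 Mb on the VH side, which holds the outer part of the distal VH genes and the first megabases beyond them. It took 3.02, 3.40 and 3.21% in the mutant, against 4.49, 4.80 and 4.46% in WT, a log2 change of -0.51 ± 0.10 (adjusted p = 0.00460). The mutant libraries lay close together here, mutant replicate 1 included, and the within-set differences were -0.62 without and -0.43 with the extra reads. The edgeR call held without each resting library in turn (adjusted p between 0.00910 and 0.0294), and was lost when covered ends were counted in place of reads (log2 -0.29, adjusted p = 0.106 with edgeR).

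In the next band inward, 1 to 2 Mb on the VH side, the log2 change was -0.23 ± 0.11 (adjusted p = 0.172). Beyond 5 Mb on that side, toward the end of the chromosome, the mutant took 0.321, 0.216 and 0.212%, against 0.175, 0.140 and 0.136% in WT. The groups stood apart, but the log2 change of 0.73 ± 0.27 did not pass (adjusted p = 0.145). The nearest band on that side, 5 to 20 kb, took 1.01, 1.03 and 1.23% in the mutant, against 0.738, 0.666 and 0.792% in WT (log2 0.57 ± 0.28, adjusted p = 0.172). No annotated J or D segment lies in that band.

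On the constant region side the bands up to 1 Mb had log2 changes between -0.22 and 0.08, none called. In 2 of them the mutant lay below WT without overlap. The band from 50 to 100 kb took 4.36, 4.11 and 4.29% in the mutant, against 5.39, 4.64 and 4.84% in WT (adjusted p = 0.145), and that from 200 to 500 kb took 11.8, 12.8 and 12.0% in the mutant, against 13.3, 13.2 and 13.5% in WT (adjusted p = 0.309). From 1 Mb outward all 6 bands had a positive estimate. The band from 1 to 2 Mb lay above WT without overlap, with 1.52, 1.36 and 1.44% in the mutant, against 1.27, 1.23 and 1.12% in WT (log2 0.25 ± 0.12, adjusted p = 0.172). The band from 5 to 10 Mb took 1.42, 0.764 and 1.06% in the mutant, against 0.756, 0.891 and 0.497% in WT (log2 0.59 ± 0.25, adjusted p = 0.145). The band from 10 to 20 Mb took 3.97, 2.89 and 2.96% in the mutant, against 2.46, 2.92 and 1.93% in WT (log2 0.43 ± 0.18, adjusted p = 0.145). The bands from 5 to 10 and 10 to 20 Mb overlapped, with mutant replicate 1 the highest of the 6 libraries. With the library set as a covariate both passed (adjusted p = 0.0115 and 3.8e-04); without mutant replicate 1 the log2 changes were 0.35 and 0.26, with an adjusted p of 0.339 each. Of the 100 bins of 100 kb between 10 and 20 Mb on this side, 72 had a positive estimate, with a median log2 change of 0.93. Of the 50 between 5 and 10 Mb, 37 did, with a median of 0.84. Over all 1124 bins tested 489 had a negative estimate, and the median was 0.19. The bins of both ranges hold few reads, with medians of 139 and 216 WT reads. No such count is given without mutant replicate 1.

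**Figure D4:**
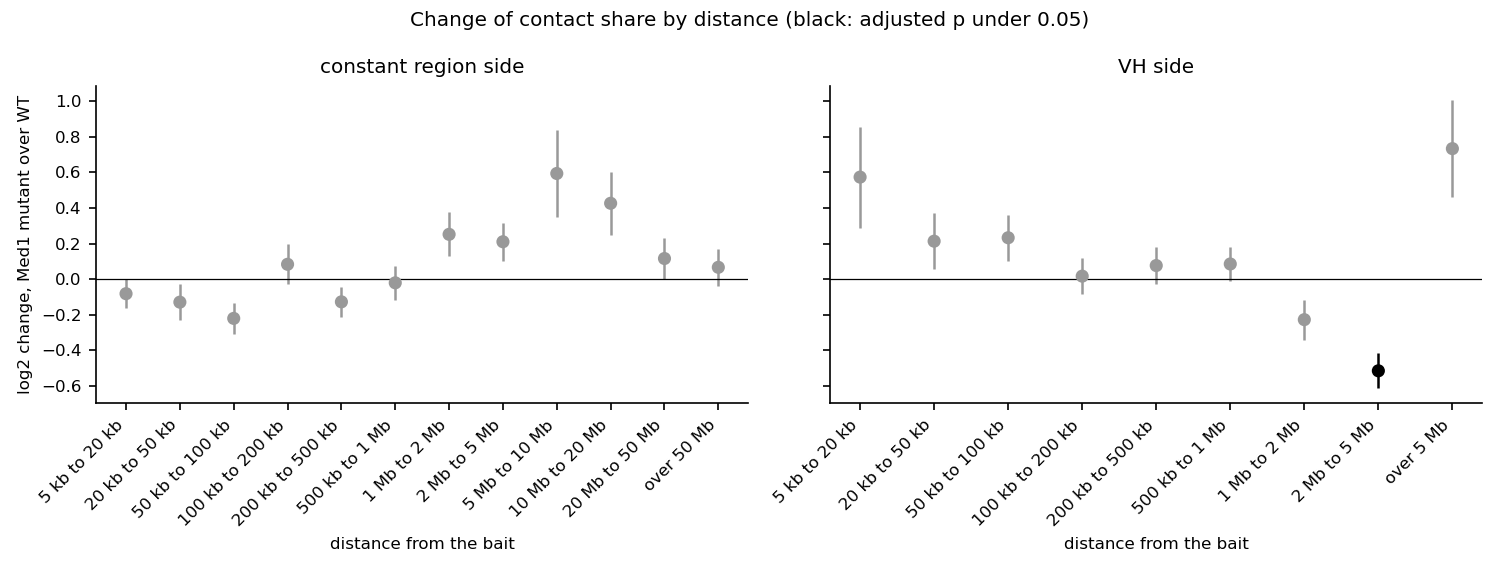
Log2 change of the contact share, Med1 mutant over WT, in 21 bands of distance from the bait on the constant region side (left) and the VH side (right), with standard errors. Only the band from 2 to 5 Mb on the VH side, at -0.51, has an adjusted p under 0.05 and is drawn in black.

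The 5 bins of chromosome 12 with the smallest unadjusted p held, beside the distal VH pair above, 2 bins within Nrxn3, a gene of neuronal synapses, and 1 at Frmd6. The Nrxn3 bin at 89900001 to 90000000 had 714, 459 and 355 reads in the mutant, against 0 reads in each WT library, although the WT libraries were deeper. Those reads fell on 8 ends, and no fold is given against libraries at 0. The Nrxn3 bin at 90100001 to 90200000 had 307, 140 and 347 reads in the mutant, against 1, 0 and 0 in WT. Both bins met the minimum mean of 10 reads through the mutant libraries, and they were chosen by their p. Neither passed over the 1124 bins (adjusted p = 0.123 and 0.228). As a whole gene with 10 kb on either side, Nrxn3 took 0.273, 0.110 and 0.198% in the mutant, against 0.0433, 0.0692 and 0.0416% in WT (adjusted p = 0.322 over 636 gene loci).

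None of the 636 gene loci of chromosome 12 passed with edgeR (0.0%). Before adjustment 46 lay under 0.05 (7.23%), and 16 loci were called by DESeq2. The 5 with the smallest p were Nrxn3, Unc79, Ighg3, Frmd6 and Tdrd9, of which Ighg3 was lower in the mutant and the others higher, all without overlap. A choice by p favours groups that stand apart, so the separation of these 5 adds no support. In Unc79 the margin was narrow, with 0.147, 0.0267 and 0.131% in the mutant, against 0.00294, 0.0256 and 0.0150% in WT. Among the genes just beyond the 3' end of Igh, none stood apart. Crip1, which encodes a small LIM protein, took 1.67, 2.00 and 1.55% in the mutant, against 2.25, 2.05 and 1.89% in WT (log2 -0.25 ± 0.14, adjusted p = 0.787), and its neighbour Crip2, which shares ends with it, had one of -0.26. Tmem121 (0.11), Mta1 (-0.15), Pacs2 (-0.25), Brf1 (-0.07), Jag2 (0.20) and Akt1 (0.29) overlapped as well, with an adjusted p of 0.845 to 0.975.

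In trans, shares are percentages of the reads on chromosomes other than 12. None of 2532 bins of 1 Mb passed with edgeR (0.0%). Before adjustment 167 lay under 0.05 (6.60%), 10.7% of bins did not overlap between the genotypes, and 14 were called by DESeq2. Of the 20 other chromosomes 1 had a share without overlap (5.0%): chromosome 15 took 4.65, 4.62 and 4.88% in the mutant, against 5.56, 5.24 and 5.06% in WT (exact permutation p = 0.1, the smallest possible). By the share of covered ends, 2 of 20 chromosomes did not overlap (10%), both higher in the mutant, and chromosome 15 did overlap. Chromosome 8 took 4.77, 4.92 and 4.81% of the covered ends in the mutant, against 4.69, 4.64 and 4.65% in WT. Chromosome 14 took 4.44, 4.37 and 4.54% of them in the mutant, against 4.24, 4.25 and 4.34% in WT (exact permutation p = 0.1 for each). Chromosome Y took 0.727, 0.297 and 0.662% in the mutant, against 0.737, 0.334 and 0.584% in WT, so replicate 2 of both genotypes was the lowest. In the LPS + IL4 libraries replicate 2 was the lowest too, at 0.300% in the mutant and 0.389% in WT, and replicate 2 had the highest chromosome X share in both genotypes on both days.

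**Figure D5:**
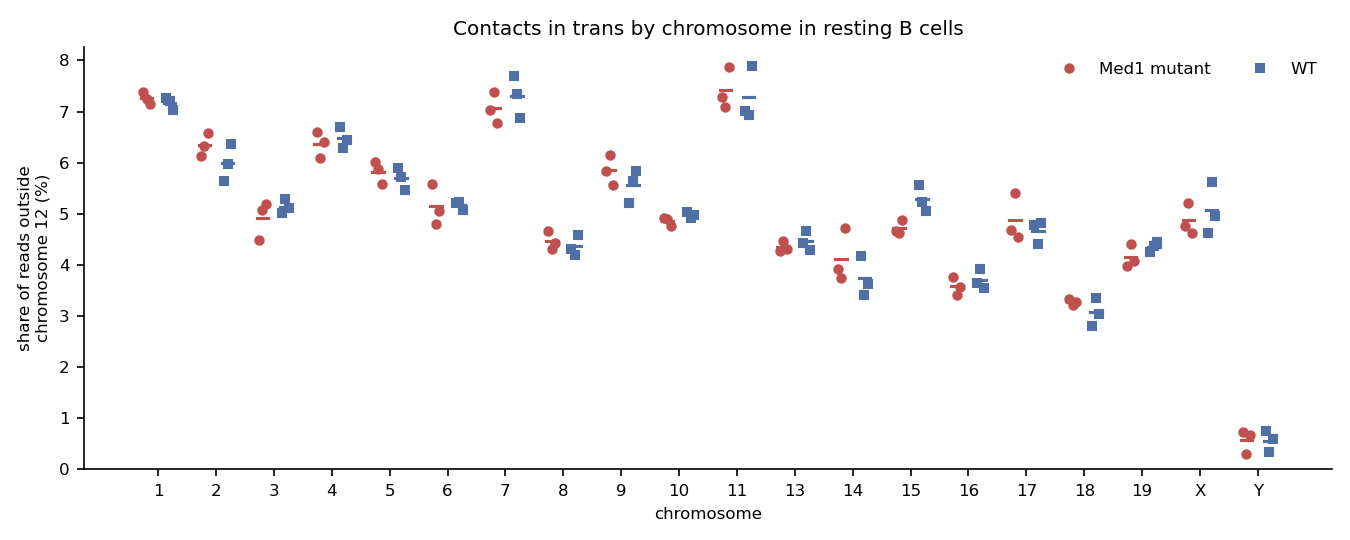
Share of the reads outside chromosome 12 (%) on each other chromosome; circles are the 3 Med1 mutant libraries, squares the 3 WT libraries and lines the group means. Chromosome 15, at 4.62 to 4.88% in the mutant and 5.06 to 5.56% in WT, is the one without overlap.

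Of 22 regions listed by gene, 3 did not overlap between the genotypes, a share near the 10.7% of all trans bins. The bin with Igkc, the κ constant gene, took 0.0784, 0.0355 and 0.0638% in the mutant, against 0.0886, 0.0892 and 0.148% in WT (log2 -0.87 ± 0.43, adjusted p = 0.753). The bin with Iglc1, a λ constant gene, took 0.191, 0.159 and 0.114% in the mutant, against 0.231, 0.388 and 0.225% in WT (log2 -0.86 ± 0.36, adjusted p = 0.721). The other was that of Krt5, a keratin gene not used in B cells, which was lower too (0.0629 ± 0.00874% in the mutant and 0.107 ± 0.0178% in WT, SD, n = 3 each). The bins of Cd79a and Cd79b, parts of the B cell receptor, of Pax5, Ebf1 and Ikzf1, B lineage transcription factors, and of Bcl6 and Myc all overlapped. The bin that holds Med1 itself took 0.161, 0.166 and 0.0886% in the mutant, against 0.210, 0.135 and 0.201% in WT.

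The 5 trans bins with the smallest unadjusted p all stood apart without passing (adjusted p = 0.641 each). Their separation likewise follows in part from the choice by p. On chromosome 7, the bin at 132000001 to 133000000, with Chst15 and Ctbp2, took 0.0114, 0.0250 and 0.0250% in the mutant, against 0.0780, 0.125 and 0.0525% in WT. On chromosome 16, the bin at 43000001 to 44000000, with Zbtb20, took 0.0794, 0.0487 and 0.0261% in the mutant, against 0.0151, 0.00444 and 0.00787% in WT. The direction was mixed: 3 of the 5 were lower in the mutant and 2 higher.

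Whether the resting difference was the same after activation was asked of each element by the difference between the resting and the LPS + IL4 log2 changes. None of 23 passed with edgeR, 3 lay under 0.05 before adjustment, and 2 were called by DESeq2. Ighe had a log2 change of 0.07 ± 0.12 after activation, beside 0.59 at rest, a difference of 0.52 ± 0.16 (adjusted p = 0.173). Ighg1 differed by 0.38 ± 0.15 (adjusted p = 0.197), with -0.40 after activation (adjusted p = 0.0299). The interval between the last D segment and the first VH gene differed by 0.60 ± 0.22 (adjusted p = 0.197). It had -0.46 after activation (adjusted p = 0.0980) and 0.15 at rest. Distal VH had -0.44 ± 0.16 after activation (adjusted p = 0.0980), which differed from the resting change by -0.12 ± 0.22 (adjusted p = 0.703). Ighg3 had -0.46 ± 0.12 after activation (adjusted p = 0.0299), with a difference of 0.09 ± 0.17 (adjusted p = 0.703). The band from 2 to 5 Mb on the VH side had -0.40 after activation (adjusted p = 0.0167 over the bands). Its difference from the resting change had an unadjusted p of 0.442.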

How the data were processed

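The files hold, per library, raw read counts at intervals of 24 bp beside DpnII sites, as deposited by the authors with no normalization. Per the submitters' processing notes, reads were aligned with Bowtie to mm10; its version, its parameters and any filter are not given in the sources used here. The reads carry no molecular identifiers, so PCR copies count as reads.

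Reads up to 5 kb from the bait on either side were not used. Reads were summed over 23 Igh elements, 21 distance bands, bins of 100 kb, gene loci with 10 kb on either side, nearest VH genes and trans bins of 1 Mb, with a mean of at least 10 reads for bins, loci and VH genes. Gene positions came from RefSeq GRCm38.p6. The 3'RR (35 kb) and the boundary (20 kb) were placed by distance beyond Igha, not from mapped sites. Differences were tested with edgeR 4.0.16 (R 4.3.3; robust quasi-likelihood, two-sided, no TMM) on 12 libraries in 4 groups. Library size was the chromosome 12 reads outside the left-out 5 kb, or for trans bins the reads on other chromosomes. Adjusted p-values (Benjamini-Hochberg, threshold 0.05) cover each whole table. Whole-library measures used the exact two-sided permutation test over 20 arrangements. The alternatives were DESeq2 1.42.0, TMM, other filters, sizes and covariates, and leaving out each library. The fits were tested on simulated data.

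All elements and bands were tested, and most of them are described, with a set list of genes and the VH families. In tables with fewer than 3 calls, the 5 features with the smallest unadjusted p are named. The members and lists were chosen with earlier results of these data known.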

Additional observations from a re-analysis of the deposited data

How the results depend on the processing

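Of 23 Igh elements, 2 were called, against 1 with TMM, with the 6 resting libraries alone or without the WT LPS + IL4 library labelled anti-CD40, and 0 with covered ends in place of reads. Leaving out 1 library gave 1 to 2, with 1 without mutant replicate 3 or any one of the WT replicates. Of 21 bands, 1 was called, against 2 with TMM or DESeq2, 3 with the 6 resting libraries alone, 6 with the library set as a covariate, 0 with covered ends in place of reads, and 1 to 2 (2 without WT replicate 3) when a library was left out. TMM called 8 bins of 100 kb and DESeq2 54, where edgeR without TMM called 0. DESeq2 also called 16 gene loci, 5 VH genes, 14 trans bins and 2 resting against LPS + IL4 differences, where edgeR called 0. Leaving out a library gave 0 to 1 loci (1 without WT replicate 1) and 0 to 2 such differences (2 without WT replicate 3). Ighe kept its call in 16 of 18 alternatives and distal VH in 7 of 18, and no element or band reversed a called direction. The cause of these changes was not tested.

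Over bins of chromosome 12, the deviations of a mutant and a WT library with the same replicate number had correlations of 0.091, -0.012 and 0.062. With different numbers they ran from -0.119 to 0.058, so 0.091 and 0.062 were the highest found. All lay near 0 and cannot decide whether the numbers are pairs. The numbers were not taken as pairs in the main fits. On the sex chromosomes replicate 2 of both genotypes did deviate together, with the lowest chromosome Y share. Whether that pair shares an origin was not tested, and the block is given beside the calls it ends. With the number as a replicate block, 0 elements and 4 bands were called, and the Ighe log2 change was 0.59 with an adjusted p of 0.0612.

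The mutant libraries were the shallower ones, and single ends varied by several fold within a genotype. Calls at single ends, VH genes and trans bins were not refitted at equal depth.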
